A study of Homo sapiens with 4 samples.

Results

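The regions described here are the weak TAF3 peaks away from both partners: peaks in the full TAF3 list of HCT116 cells that the authors' filter left out and that shared no base with a filtered peak of H3K4me3 or of RNAPII. There were 962 such members among the 17887 TAF3 peaks of the full list, and 6122 peaks in all lay outside the filter. The filter asked for a TAF3 fold enrichment over 5 together with a false discovery rate under 5%. Members were thus selected on those 2 values and on the partner lists, and values of TAF3 strength are given as descriptions only. "Away from both partners" held for the filtered lists alone: 590 of the 962 members shared bases with a full-list RNAPII peak that had also missed the filter, and 170 with such an H3K4me3 peak.

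HCT116 is a human colorectal carcinoma line, here grown without treatment and at passages that every library shared. Chromatin from crosslinked cells was precipitated with a polyclonal antiserum raised to residues 290 to 389 of TAF3, with antibodies to H3K4me3 or to RNAPII, or kept as input DNA, and each of these 4 libraries was sequenced once. The 3 antibody libraries were set against the same input, so noise in the input is common to them. There were no replicates and no other cell line or condition, and every interval below covers the counting of peaks or tags only.

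TAF3 is a subunit of TFIID, the general transcription factor that recognises core promoters and starts the assembly of the preinitiation complex. Its PHD finger binds histone H3 trimethylated at lysine 4 (H3K4me3), a mark of active promoters, and RNAPII joins the complex that TFIID nucleates. In mouse embryonic stem cells TAF3 has also been reported away from promoters, at sites bound by CTCF.

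The TAF3 library held 17411155 tags once duplicates were removed. The H3K4me3 and RNAPII libraries held 12560129 and 16841238, and the input library 19185386. The members held 22858 TAF3 tags, 0.131% of the library, in 464 kb. The filter passed 65.8% of all TAF3 peaks in the full list, a share that follows from the rule.

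The members were narrow and shallow. Their median width was 444 bp (quartiles 361 and 557 bp), their median tag count was 17 (quartiles 12.3 and 23), and 622 members (64.7%) held 20 tags or fewer. A peak of 17 tags is a small count, and the counting error of single members is correspondingly wide. The median score, which is -10 times log10 of the p-value from MACS, was 62.2, close to the lowest score of 50 that the authors' p cutoff admits. The median fold enrichment over local input was 9.05 in members, the same as the 9.05 of the 2389 weak TAF3 peaks on filtered RNAPII alone and below the 10.9 of the 2414 weak TAF3 peaks on both partners. Tag counts differed more than fold enrichment did: weak peaks on RNAPII alone had a median of 30 tags in 655 bp and weak peaks on both partners 34 tags in 691 bp. The 357 weak TAF3 peaks on filtered H3K4me3 alone were nearest to the members in size, with 19 tags in 483 bp.

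**Figure D1:**
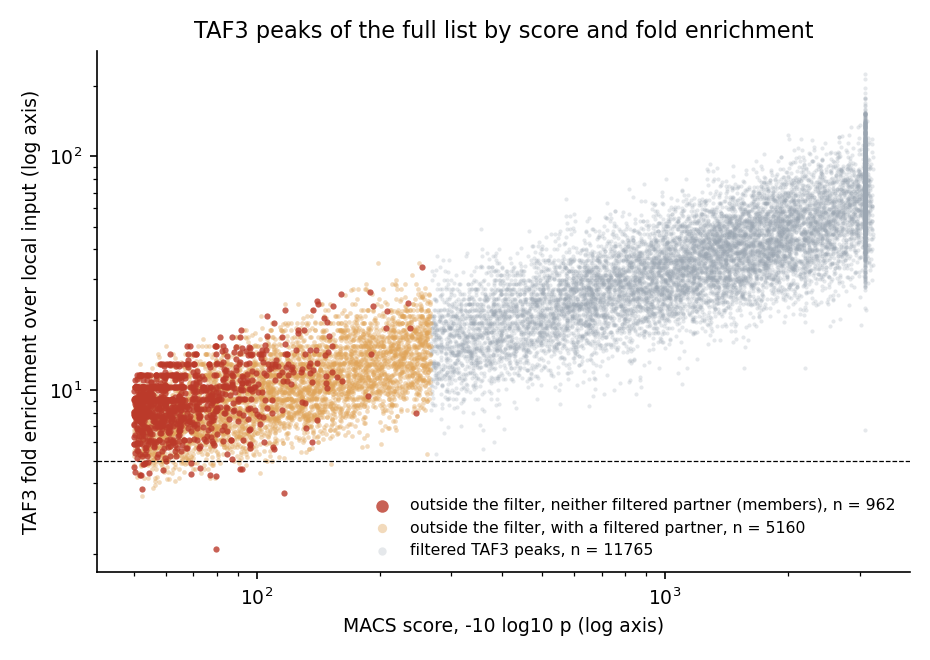
Each point is 1 TAF3 peak of the full list, placed by its MACS score (horizontal log axis) and its fold enrichment over local input (vertical log axis), with members in red, other peaks outside the filter in orange and filtered peaks in grey. The members crowd at the low-score end, with a median score of 62.2, and the dashed line marks the fold enrichment of 5 that the filter required.

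The false discovery rate left out all 962 members, and 21 of them also missed the fold criterion. This rate is MACS's own estimate of the percent of false peaks at or above a given score, and it ran from 5.47% to 51.3% in the members with a median of 33.9%. It was under 10% in 10 members, under 20% in 165 and at least 40% in 324. The 3 members just inside this bound were at chr13:45284613-45285196 (5.47%), chr12:127650201-127651291 (5.78%) and chr8:25517891-25518623 (6.07%). Just outside it, among the 18 filtered TAF3 peaks with neither partner, were chr3:65494686-65495393 (4.84%), chr9:79186567-79187033 (4.79%) and chr6:43214793-43215399 (3.54%). The distance bound was as fine: the member at chr6:27656030-27656536 ended 3 bp from a filtered RNAPII peak and 62 bp from a filtered H3K4me3 peak, whereas the weak TAF3 peak at chr14:21574471-21574895 shared 5 bp with a filtered RNAPII peak and was therefore not a member.

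Of the members with the highest scores, most held 29 to 44 tags and one held 166. The member at chr13:45284613-45285196 had 38 TAF3 tags (95% exact Poisson interval 26.9 to 52.2), a score of 254 and a fold enrichment of 33.6, the highest of both among members. It overlapped an RNAPII peak of 32 tags and 22.9-fold enrichment whose summit lay 79 bp from the TAF3 summit, and no full-list H3K4me3 peak. A second member of 17 tags and 13.2-fold enrichment lay beside it at chr13:45288313-45288703. The next by score, at chr12:127650201-127651291, was unlike the others in the top 8, with 166 tags (142 to 193) in 1091 bp at 7.95-fold enrichment, and it overlapped an RNAPII peak of 149 tags and 9.21-fold enrichment. At 152 tags per kb it was among the tag-dense members described below. The member at chr8:25517891-25518623 had 42 tags (30.3 to 56.8) and 18.4-fold enrichment, with an RNAPII peak of 38 tags and 18.7-fold enrichment. Others of high score had no partner peak of either kind in the full lists. The member at chr12:124594222-124594888 had 42 tags and 23.5-fold enrichment, the one at chr9:128844807-128845403 had 44 tags and 21.9-fold enrichment, and the one at chr19:7616249-7616704 had 36 tags and 18.4-fold enrichment. Thus among the 8 members of highest score, 4 had a full-list RNAPII peak, 4 did not, and none overlapped an H3K4me3 peak.

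Most members overlapped an RNAPII peak below the filter, a share close to that of all TAF3 peaks without a filtered RNAPII peak. A full-list RNAPII peak overlapped 590 of the 962 members (61.3%, 95% Wilson interval 58.2 to 64.4%). Over all TAF3 peaks of the full list with no filtered RNAPII peak, that share was 65.8% of 1380, and 962 of these 1380 were the members themselves. The nearest class for comparison is the weak TAF3 peaks on filtered H3K4me3 alone, of which 272 of 357 overlapped a full-list RNAPII peak (76.2%, 71.5 to 80.3%). The members' share was lower by 14.9 percentage points (difference -14.9, 95% Newcombe interval -20.0 to -9.28). Against the 18 filtered TAF3 peaks with neither partner the order was the other way, with 61.3% of members and 4 of the 18 (22.2%, 9.001 to 45.2%) on a full-list RNAPII peak, a difference of 39.1 points (15.9 to 52.7).

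H3K4me3 was present less often. A full-list H3K4me3 peak overlapped 170 members (17.7%, 15.4 to 20.2%), beside 33.3% of the 3589 TAF3 peaks of the full list with no filtered H3K4me3 peak. Among the 2389 weak TAF3 peaks on filtered RNAPII alone the share was 37.2% (35.3 to 39.2%), so that of the members was lower by 19.5 points (difference -19.5, -22.5 to -16.4). The filtered TAF3 peaks with neither partner had 5 of 18 (27.8%, 12.5 to 50.9%), and the difference of -10.1 points had an interval that includes 0 (-33.3 to 5.38). The lists differ in length below the filter, with 36443 RNAPII peaks covering 25.03 Mb and 3677 H3K4me3 peaks covering 2.71 Mb, so the shares of the members with RNAPII and with H3K4me3 do not compare the antibodies at equal depth.

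Sorted by these weak partners, the members fell into 2 large classes and 2 smaller ones. RNAPII alone was present at 436 members (45.3%, 42.2 to 48.5%), no partner peak of any strength at 356 (37.0%, 34.0 to 40.1%), both partners at 154 (16.0%, 13.8 to 18.5%) and H3K4me3 alone at 16 (1.66%, 1.03 to 2.68%). H3K4me3 was thus seldom present without RNAPII, though most members with RNAPII had no H3K4me3 peak. It was present at 26.1% of the 590 members with a full-list RNAPII peak (22.7 to 29.8%) and at 4.30% of the 372 without (2.66 to 6.87%), a difference of 21.8 points (17.6 to 25.8). The members with no partner peak had a median of 13 TAF3 tags in 381 bp and a score of 57.2. Those with RNAPII alone had 20 tags in 506 bp and a score of 65.4, and those with both had 18 tags in 470 bp and a score of 68.6. A narrower peak has fewer bases in which to meet another, and the part of width in these shares was not tested.

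The share with a weak partner was higher in members of higher TAF3 score. With the members split into 3 equal groups by score (lowest, middle, highest), 45.2%, 62.5% and 76.3% overlapped a full-list RNAPII peak, and 10.3%, 18.4% and 24.3% overlapped a full-list H3K4me3 peak. Median width also increased over these groups, at 369, 441 and 540 bp. Within these score groups the members' shares were below those of the comparison classes, though not always beyond the intervals. In the highest group the RNAPII share was 76.3% in members (71.4 to 80.6%) and 85.6% in weak TAF3 peaks on H3K4me3 alone (79.9 to 89.8%), and the H3K4me3 share was 24.3% in members (19.9 to 29.3%) and 41.4% in weak peaks on RNAPII alone (39.1 to 43.8%). The RNAPII intervals overlapped in the lowest group, with 45.2% in members (39.8 to 50.6%) and 60.9% in weak peaks on H3K4me3 alone (48.7 to 71.9%), and in the middle group, with 62.5% in members (57.1 to 67.6%) and 66.3% in weak peaks on H3K4me3 alone (56.3 to 75.02%). For H3K4me3 the intervals lay apart in the lowest group, with 10.3% in members (7.41 to 14.1%) and 22.8% in weak peaks on RNAPII alone (17.9 to 28.7%), and just overlapped in the middle one, with 18.4% in members (14.6 to 23.1%) and 26.7% in weak peaks on RNAPII alone (22.7 to 31.0%). Weighting the score groups by the number of members gave 61.3% in members and 70.9% in the comparison class for RNAPII, and 17.7% in members and 30.3% in the comparison class for H3K4me3. The highest group is broad, and the comparison peaks within it had higher scores than the members. With 10 score groups, a split chosen after the values were seen, the members' shares were lower by 8.88 points for RNAPII (difference -8.88, 61.3% in members and 70.2% in the comparison class) and by 11.5 points for H3K4me3 (difference -11.5, 17.7% in members and 29.2% in the comparison class), and lower in 9 of the 10 groups for each partner. The smallest of these groups held only 14 comparison peaks for RNAPII and 41 for H3K4me3, and no interval was computed for them. Even in the top one of the 10 groups, scores were not equal, with a median of 122 in members, 133 in weak peaks on H3K4me3 alone and 143 in weak peaks on RNAPII alone. The comparison peaks on RNAPII alone were wider than members in every score group, at 479, 535 and 717 bp.

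**Figure D2:**
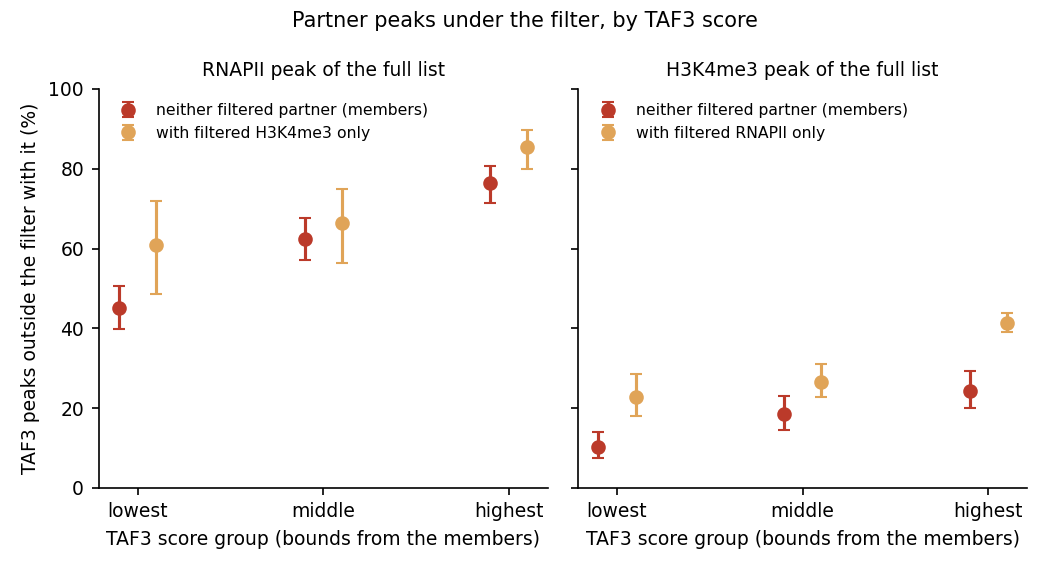
Percent of TAF3 peaks outside the filter that overlapped a full-list RNAPII peak (left) or H3K4me3 peak (right), by group of TAF3 score, for members (red) and for the weak TAF3 peaks that overlapped only the other filtered partner (orange). Points are shares and bars are 95% Wilson intervals, and the RNAPII share of the members was 45.2%, 62.5% and 76.3% from the lowest to the highest score group.

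The partner peaks under the members had also missed the authors' filter, as the rule requires. Only peaks that share bases with a member were measured, so their summits lay near the TAF3 summits in part by construction. The distance to be had from overlap alone was not tested. The 590 overlapping RNAPII peaks had a median of 32 tags (quartiles 22 and 41), 13.3-fold enrichment and a false discovery rate of 7.70%, and the 170 overlapping H3K4me3 peaks had 25 tags (quartiles 18 and 38), 13.3-fold enrichment and a false discovery rate of 19.7%. The RNAPII summit was a median of 69 bp from the TAF3 summit of the member (95% interval of the median 59 to 79 bp), and within 50 bp at 240 of 590 (40.7%, 36.8 to 44.7%). The H3K4me3 summit was farther, at a median of 115 bp (89 to 145 bp) and within 50 bp at 46 of 170 (27.1%, 20.9 to 34.2%). H3K4me3 peaks were also wider, with a median of 738 bp against 591 bp for RNAPII. For weak TAF3 peaks on H3K4me3 alone the median distance to the full-list RNAPII summit was 84 bp (73 to 98 bp), and for weak peaks on RNAPII alone the median distance to the full-list H3K4me3 summit was 151 bp (140 to 164 bp). Across the 590 members with RNAPII, the rank correlation of TAF3 with RNAPII fold enrichment was 0.30, and across the 170 with H3K4me3 it was 0.36. The comparison classes had similar values, 0.30 for RNAPII under weak peaks on H3K4me3 alone and 0.34 for H3K4me3 under weak peaks on RNAPII alone. These are descriptions across peaks that share an input library.

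**Figure D3:**
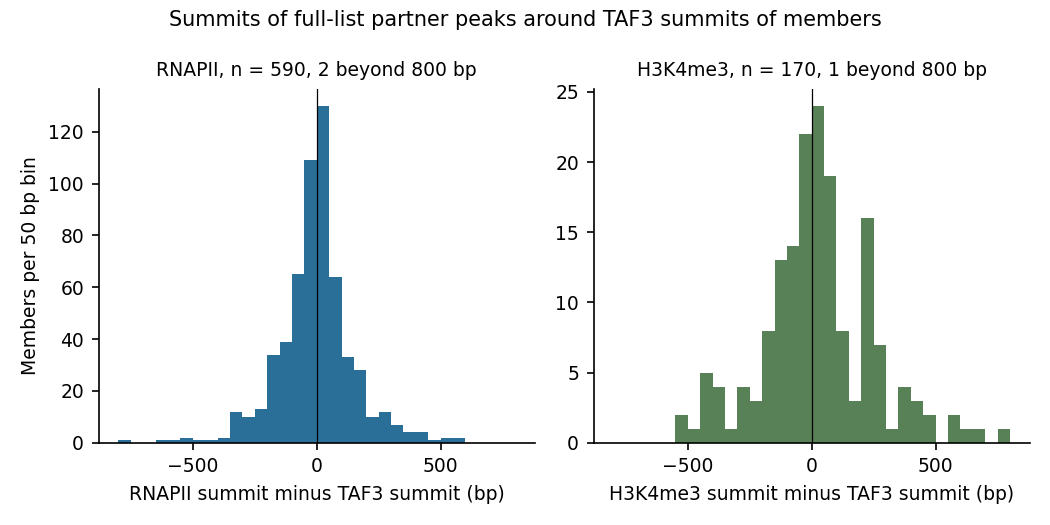
Number of members per 50 bp bin of the distance from the TAF3 summit to the summit of the overlapping full-list RNAPII peak (left, 590 members) or H3K4me3 peak (right, 170 members), in genome orientation. Only overlapping peaks are counted, so both distributions centre on the TAF3 summit in part by construction. The RNAPII one is the narrower, with a median absolute distance of 69 bp against 115 bp for H3K4me3.

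At a few members all 3 antibodies peaked within a few bases of each other. At chr19:23752589-23753023 TAF3 had 25 tags and 25.9-fold enrichment, H3K4me3 had 29 tags and 37.2-fold enrichment with a summit 1 bp away, and RNAPII had 19 tags and 24.1-fold enrichment with a summit 5 bp away. At chr9:108282020-108282270 TAF3 had 18 tags and 22.0-fold enrichment, H3K4me3 31 tags and 37.2-fold enrichment, and RNAPII 20 tags and 22.7-fold enrichment, with both partner summits 1 bp from that of TAF3. The member at chr7:123172946-123173169 had 12 TAF3 tags and 15.5-fold enrichment, beside 25 H3K4me3 tags at 33.2-fold enrichment and 20 RNAPII tags at 26.7-fold enrichment. The highest H3K4me3 enrichment under a member, 43.8-fold with 39 tags, was at chr11:50257201-50257584, where TAF3 had 18 tags and 20.7-fold enrichment and no RNAPII peak of the full list was present. These sites were named because their partner peaks had the highest fold enrichment, so their strength is a description. The next by H3K4me3 enrichment, at chr11:71350270-71350582, had 10 TAF3 tags, H3K4me3 at 33.2-fold and RNAPII at 28.1-fold enrichment. There the H3K4me3 summit lay 243 bp and the RNAPII summit 20 bp from that of TAF3.

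The strongest RNAPII under a member was in 2 peaks of very high score that missed the filter on false discovery rate, at 7.14% and 18.2%. An RNAPII peak of 392 tags, 49.8-fold enrichment and a score of 3221 overlapped the member at chr9:132269222-132269483, which had 10 TAF3 tags (4.80 to 18.4) and 9.30-fold enrichment. Another of 569 tags, 33.4-fold enrichment and a score of 3230 overlapped the member at chr20:39633140-39634578. This RNAPII peak was 5040 bp wide, and its summit lay 1563 bp from the TAF3 summit of the member. The member had 58 TAF3 tags at 6.92-fold enrichment and lay 266 bp from a filtered TAF3 peak. It also overlapped a full-list H3K4me3 peak of 87 tags and 12.3-fold enrichment. These 2 members were the ones on an RNAPII peak with a score of 3100 or more, and without them 960 remained. The next in order were chr18:8882854-8883225, with 14 TAF3 tags and an RNAPII peak of 36 tags and 33.4-fold enrichment, and chr6:42472968-42473251, with 12 TAF3 tags and an RNAPII peak of 37 tags and 33.4-fold enrichment.

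Most members lay more than 10 kb from the nearest filtered RNAPII peak, though 583 (60.6%) lay within 50 kb of one. Distances from random positions were not computed, so no member is called far or near by that measure. The median distance, edge to edge, was 29.9 kb to the nearest filtered RNAPII peak (quartiles 7.99 and 108 kb), 47.4 kb to the nearest H3K4me3 peak (16.3 and 141 kb) and 56.7 kb to the nearest filtered TAF3 peak (19.9 and 177 kb). The RNAPII list is the longest, so the smaller distance to it is no measure of preference. Taken member by member, the nearest filtered peak of any kind was H3K4me3 at 513 members (53.3%), RNAPII at 429 (44.6%) and TAF3 at 20 (2.08%). Of the 11765 filtered TAF3 peaks, 11484 lay on both filtered partners. At such a shared site the peak whose edge reaches farthest counts as nearest, so these shares are no measure of preference either. All 3 kinds of filtered peak were more than 100 kb away at 229 members (23.8%) and more than 1 Mb away at 22 (2.29%). A filtered RNAPII peak lay within 1 kb of 52 members (5.41%, 4.15 to 7.02%) and within 10 kb of 263 (27.3%, 24.6 to 30.2%), beside 35.0% within 10 kb over all TAF3 peaks of the full list with no filtered RNAPII peak.

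**Figure D4:**
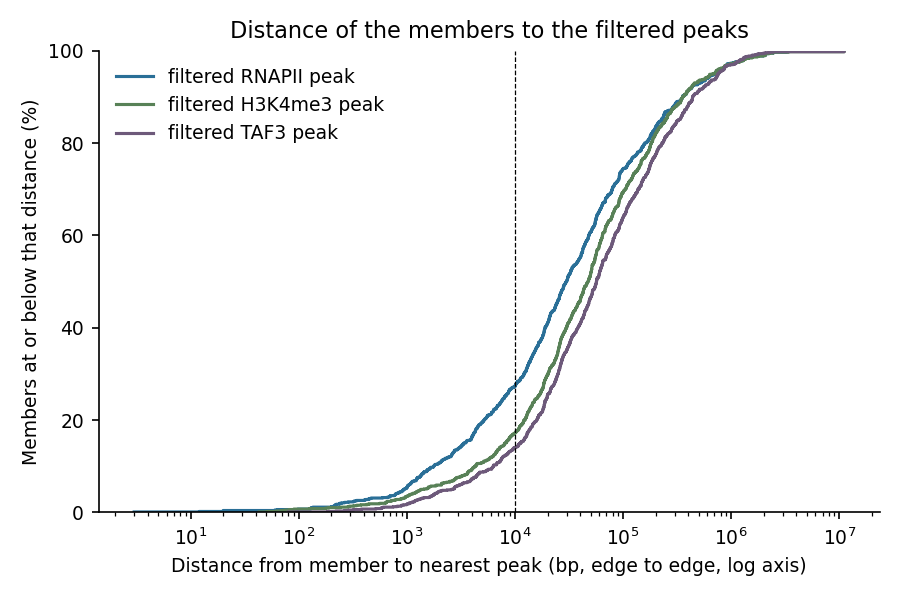
Cumulative percent of the 962 members (vertical axis) within a given edge-to-edge distance in bp (horizontal log axis) of the nearest filtered RNAPII, H3K4me3 or TAF3 peak, with a dashed line at 10 kb. At that distance the curves stand at 27.3% for RNAPII, 17.3% for H3K4me3 and 14.0% for TAF3.

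Members were farther from filtered peaks than other weak TAF3 peaks were. A filtered TAF3 peak lay within 10 kb of 14.0% of members (12.0 to 16.4%), beside 30.9% of all 6122 TAF3 peaks outside the filter. The share was 28.9% for weak peaks on RNAPII alone, a difference of -14.9 points (-17.7 to -12.0), and 37.7% for weak peaks on both partners, a difference of -23.7 points (-26.5 to -20.7). A filtered H3K4me3 peak lay within 10 kb of 17.3% of members (15.0 to 19.8%) and 29.0% of weak peaks on RNAPII alone (difference -11.8 points, -14.7 to -8.71), beside 26.0% over all TAF3 peaks of the full list with no filtered H3K4me3 peak. A filtered RNAPII peak lay within 10 kb of 27.3% of members and 55.2% of weak peaks on H3K4me3 alone (difference -27.8 points, -33.6 to -21.9). Because members may not touch a filtered partner and the others must touch 1, part of these differences is built into the rule.

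Distance went with the weak partners too. The median distance to the nearest filtered RNAPII peak was 18.7 kb (95% interval of the median 15.1 to 21.3 kb) for the 436 members with a weak RNAPII peak alone, 24.7 kb (18.1 to 37.6 kb) for the 154 with both and 61.9 kb (47.7 to 91.7 kb) for the 356 with none. The share within 10 kb of a filtered RNAPII peak was 36.5% (32.1 to 41.1%) with RNAPII alone, 28.6% (22.0 to 36.2%) with both and 16.3% (12.8 to 20.5%) with none. To the nearest filtered H3K4me3 peak the medians were 33.2 kb (26.9 to 42.5 kb), 33.5 kb (24.7 to 46.5 kb) and 69.1 kb (58.5 to 96.3 kb) in the same order. The intervals for members with RNAPII alone and with both overlapped for each of these measures, and those for members with none lay apart from those with RNAPII alone.

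Most members had no other member within 10 kb, and the spacing of random positions was not computed. Of the 962 members, 48 lay within 10 kb of another member (4.99%, 3.78 to 6.55%), against 29.2% of the 5160 other weak TAF3 peaks within 10 kb of another of their own kind (27.9 to 30.4%). The other weak peaks outnumber the members and lie on filtered peaks by definition, and the part of this in the shares was not tested. The median distance to the nearest member was 690 kb. With gaps of at most 10 kb there were 21 groups of 2 members and 2 groups of 3, at chr16:33961003-33976162 and chr4:30785459-30797402.

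A small number of members held many tags per kb. The median member held 37.7 TAF3 tags per kb, which is 5.84 times the library mean of 6.45 per kb. More than 10 times the library mean was found in 32 members (3.33%), whose median fold enrichment was 10.8, and 11 of these (34.4%, 20.4 to 51.7%) overlapped a full-list RNAPII peak and 5 (15.6%) an H3K4me3 peak. At the still higher limit of 100 per kb, chosen after the values were seen, 11 members (1.14%) remained. Their fold enrichment was low, with a median of 5.71 (range 2.10 to 8.85). Members had to miss the filter, which leaves little room for a dense peak of high enrichment. The low enrichment is therefore a description only. The extreme was chr6:58776074-58779588, the widest member at 3515 bp, with 3091 tags, 879 tags per kb and a fold enrichment of 2.10, the lowest in the list. That peak alone held 13.5% of all tags in members. It was followed by chr1:91852482-91853252 (365 tags, 3.62-fold), chr2:230045286-230045714 (97 tags, 5.59-fold), chr8:70602267-70602871 (127 tags, 5.71-fold) and chr2:133011621-133013470 (330 tags, 5.98-fold). The group of 3 on chromosome 16 and the 2 members on chromosome Y, at chr16:33961003-33976162 and chrY:10033397-10036690, had no RNAPII or H3K4me3 peak of the full lists. Inside the span of the chromosome 16 group lay a filtered TAF3 peak with neither partner, at chr16:33962781-33964291, with 381 tags and 6-fold enrichment. By general knowledge of the hg19 map, and not from any file used here, the chromosome 16, Y and 6 regions lie near centromeres. Of the 11 members over 100 per kb, 1, at chr12:127650201-127651291, overlapped a full-list RNAPII peak and none an H3K4me3 peak. More than 100 tags per kb was seen in 5 of the 5160 other weak TAF3 peaks and in 14 of the 18 filtered TAF3 peaks with neither partner. Such densities were common among filtered peaks: the 11484 filtered TAF3 peaks on both partners had a median of 119 tags per kb. Without the 32 members over 10 times the library mean, the shares with a full-list partner were 62.3% for RNAPII and 17.7% for H3K4me3.

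The chromosomes contributed unequally. Members made up 15.7% of the TAF3 peaks outside the filter overall (14.8 to 16.6%). On chromosome 8 the share was 66 of 269 (24.5%, 19.8 to 30.0%), compared with 15.3% on the other chromosomes together, a difference of 9.23 points (4.37 to 14.8). Members were found along the whole of it. In 25 Mb steps along chromosome 8 from its start, 5, 17, 5, 11, 12 and 16 members were counted among 44, 58, 23, 36, 33 and 75 weak TAF3 peaks. On chromosome X the share was 11 of 158 (6.96%, 3.93 to 12.0%), against 15.9% on the others (difference -8.98 points, -12.2 to -3.83). Both chromosomes were singled out after 24 shares had been seen. Of the members on chromosome 8, 33 of 66 overlapped a full-list RNAPII peak, and on chromosome X 6 of 11 did. Copy number along these chromosomes was not analysed here, and its part in the shares was not tested.

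**Figure D5:**
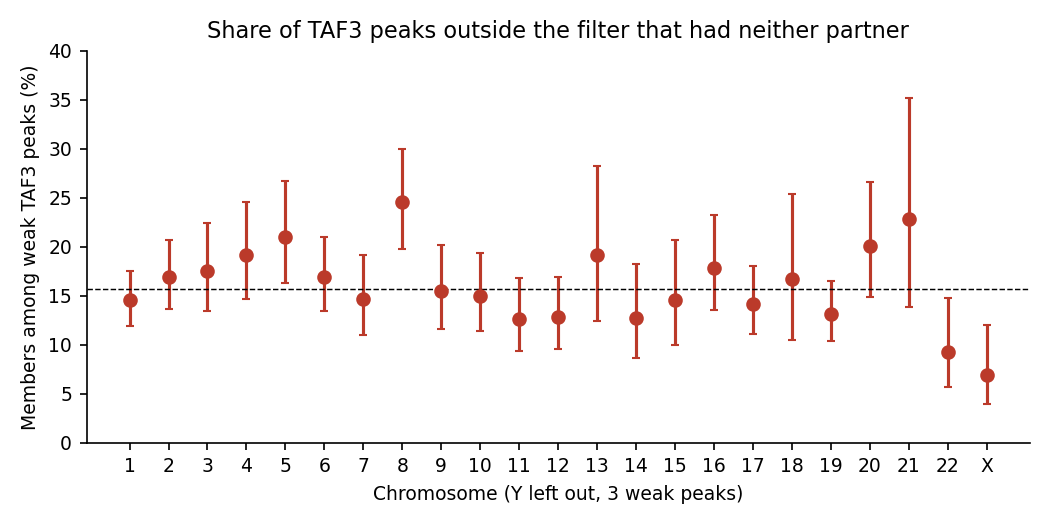
Members as a percent of all TAF3 peaks outside the filter on each chromosome, with 95% Wilson intervals and a dashed line at the overall 15.7%. Chromosome 8 stands highest at 24.5% and chromosome X lowest at 6.96%, and chromosome Y, with 3 such peaks of which 2 were members, is not drawn.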

How the data were processed

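The 4 HCT116 libraries (TAF3, H3K4me3, RNAPII and input DNA) were assigned from their titles. The submitters' processing notes name build hg19, CASAVA 1.8.2 and MACS 1.4.2, and how reads were aligned is not given in the sources used here. MACS called each antibody singly against the same input, per the file headers, with a p cutoff of 1e-05 and at most 1 tag per position. Each peak has a deposited tag count that is unscaled. It has a deposited fold enrichment, a ratio to the local background from input. It has a deposited score, -10 times log10 of p. Its deposited false discovery rate is given in percent. All are the authors' values, used to describe peaks.

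Members were found by coordinates, which are identical in full and filtered lists, and overlap meant at least 1 shared bp. Shares carry Wilson and differences Newcombe 95% intervals, medians the binomial order-statistic interval and tag counts the exact Poisson interval. These cover counting error only, since PCR-amplified tags and peaks are not independent samples. With 1 library per antibody no p-value was computed. The members, lists and comparisons were chosen with earlier results of these data known. Regions are named by the top ranks of score, fold enrichment, width, partner fold enrichment, closeness to the bounds and group size, with ties ordered by tags and coordinate. Tag-dense members and single chromosomes were named after their values were seen. Coordinates count from 1. Genes and DNA sequence are not analysed here, because the annotation at hand was on another build. The code used scipy 1.17.1, pandas 2.3.3, numpy 2.4.6 and matplotlib 3.10.9 in Python 3.11.15. It was tested on simulated data and against bedtools 2.31.1.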

Additional observations from a re-analysis of the deposited data

How the results depend on the processing

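No paired analysis was possible because each antibody has 1 library, and for the same reason no replicate could be left out. Alternatives gave 52 values, of which 41 fell inside the main value's 95% interval or, for the number of members, within 1.5 times it (none of these 6 kinds of value has a direction, and the differences between classes were rerun only with another number of score groups). The alternatives were planned apart from leaving out tag-dense members and the 10 score groups, both chosen after seeing the data. Leaving out tag-dense members moved none of the 6 values beyond those bounds. A TAF3 score of at least 60 left 540 members, of which 72.0% had a full-list RNAPII peak, 22.8% a full-list H3K4me3 peak and 2.59% another member within 10 kb, with a median fold enrichment of 9.785. A full-list H3K4me3 peak lay within 1 kb of 21.6% of members. Where a filtered partner within 1 kb already removed a peak, 22.4% lay within 10 kb of a filtered RNAPII peak, and that alternative by construction drops the nearest members. With distances of 1 and 50 kb in place of 10 kb, 5.41% and 60.6% of members had a filtered RNAPII peak and 1.46% and 11.0% another member that near. With a median of 17 tags, the depth does not allow statements on single weak members.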

Other observations

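Seen from the RNAPII list, peaks below the filter that carried a member were stronger than those that carried no TAF3 peak. Of the 36443 RNAPII peaks outside the filter, 595 overlapped a member (1.63%) and 35136 overlapped no TAF3 peak of either list. The median RNAPII fold enrichment was 13.4 with 32 tags for those on members and 9.23 with 25 tags for those on no TAF3 peak. The 169 H3K4me3 peaks outside the filter that overlapped a member had a median of 13.3-fold enrichment and 25 tags, and the 2282 on no TAF3 peak had 11.9-fold enrichment and 22 tags. These higher values were not particular to members. Under weak TAF3 peaks on H3K4me3 alone, full-list RNAPII peaks had a median of 14.7-fold enrichment and 31 tags. Under weak TAF3 peaks on RNAPII alone, full-list H3K4me3 peaks had 12.4-fold enrichment and 31 tags. All these enrichments share 1 input library. Members took 4.60% of the 3677 H3K4me3 peaks outside the filter and 1.63% of the RNAPII peaks, while TAF3 peaks of the full list as a whole overlapped 37.9% of these H3K4me3 peaks (1395) and 3.59% of these RNAPII peaks (1307). Of the peaks outside the filter that met any TAF3 peak, 12.1% of those of H3K4me3 and 45.5% of those of RNAPII thus met a member. Part of this contrast is built into the rule. The 962 members were among 1380 TAF3 peaks with no filtered RNAPII peak but among 3589 with no filtered H3K4me3 peak.

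The megabase with the highest count of members was on chromosome 19, from 49 to 50 Mb, with 6 members among 25 TAF3 peaks outside the filter, beside 15.7% over all chromosomes. Of these 6, 4 overlapped a full-list RNAPII peak and none an H3K4me3 peak. No other megabase held more than 4. The megabase from 3 to 4 Mb on chromosome 16 held 4 members among 9 such peaks, all 4 with a full-list RNAPII peak, and the one from 43 to 44 Mb on chromosome 8 held 4 members, which were all 4 of its TAF3 peaks outside the filter, none with RNAPII and 2 with H3K4me3.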
